A study of Mus musculus with 6 samples.

Results

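The genes described here encode the pyruvate dehydrogenase complex of mitochondria, the kinases and phosphatase that set its activity, and the carrier that brings pyruvate to it. They are 10 of the 57010 genes listed in the deposited expression table and were taken by gene name: the kinases Pdk1, Pdk2, Pdk3 and Pdk4, the phosphatase Pdp1, the subunits Pdha1, Pdhb and Dlat, and the carrier subunits Mpc1 and Mpc2. Each name matched exactly 1 row. RNA was sequenced from the gastrocnemius, the large and mostly fast-twitch muscle of the calf, in 3 radiotherapy and 3 control libraries of a study titled on muscle fibrosis after radiotherapy. All mice were NSG (NOD/SCID/IL2Rγ-null), a strain that lacks lymphocytes but keeps myeloid cells, and carried a subcutaneous xenograft of MDA-MB-231, a human breast cancer line, with Rab27a knocked down. In the radiotherapy group the tumour alone received 10 Gy in 1 exposure, and the gastrocnemius contralateral to it was collected after 3 days. The control group is untreated by its label and the series' design text, although its samples carry the irradiation protocol text too. The knockdown was shared by both groups and lay in the human tumour cells, so no muscle here came from a mouse without a tumour or with an unmodified one. Neither the age of the mice nor their number is in the labels, so p-values measure only the spread between these samples, which may be technical.

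Pyruvate made by glycolysis enters the mitochondrial matrix through a carrier built of MPC1 and MPC2. There the pyruvate dehydrogenase complex converts it to acetyl-CoA, the step that commits carbohydrate carbon to oxidation. Pyruvate dehydrogenase kinases phosphorylate the alpha subunit, encoded by Pdha1, and switch the complex off, while PDP1 and PDP2 remove the phosphate and switch it on. In skeletal muscle PDK2 and PDK4 are the main kinases, and Pdk4 mRNA is known to rise with fasting, fatty acids and glucocorticoids, which spare glucose.

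The tissue label was checked with 6 markers of all muscle fibres, which summed to 17098 to 34190 TPM in radiotherapy and 42086 to 47049 TPM in control libraries. Acta1 and Ckm made up most of each sum. Of the 6 markers, 4 had a negative and 2 a positive log2 fold change, and 0 were called. TPM, a level scaled so that each library sums to 1000000, is a share of all transcripts corrected for length, so it allows levels of different genes to be compared, but it carries no sequencing depth. Transcripts of the mitochondrial genome took 15.1 to 22.5% of TPM in radiotherapy and 8.93 to 13.7% in control libraries, which lowers the share left to all other genes. The median log2 fold change of all 11375 genes tested was −0.11, radiotherapy minus control on the log2(TPM + 1) scale, and 67.9% of them were negative. That median was −0.01 after quantile normalization, and the fold changes below are to be read against this shift. Across these genes limma called 0 at the adjusted p threshold of 0.05, so percent called was 0 in either direction, with 435 genes at an unadjusted p under 0.05.

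None of the pyruvate dehydrogenase genes passed the test, and the clearest feature of the group was the wide swing of Pdk4 from library to library. Of the 10 genes, 9 reached the filter of 1 TPM in at least 3 libraries, and 0 of these 9 were called. Their median was −0.32, 8 were negative, and their adjusted p values from limma lay between 0.977 and 0.991. Pdk4 had the largest difference and was the only one of them at an unadjusted p under 0.05 (log2 fold change −1.15, limma adjusted p = 0.977); over all genes tested, percent called at that unadjusted threshold was 2.86 for lower values and 0.967 for higher values. In bulk muscle, fewer cells of a type and less RNA per cell cannot be told apart.

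**Figure D1:**
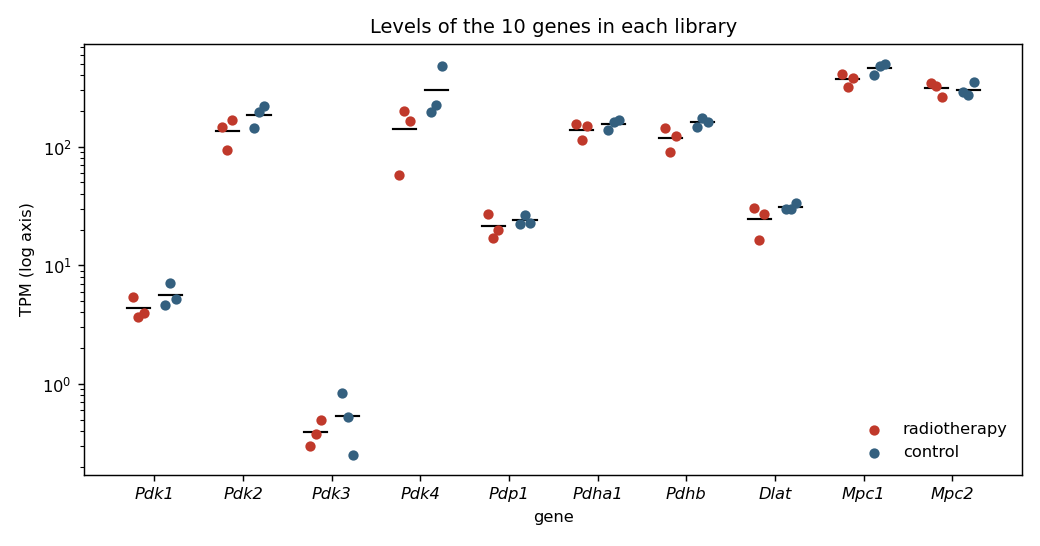
Level of each of the 10 genes in TPM on a log axis, with radiotherapy libraries left of control libraries. Points are single libraries and bars are group means (n = 3 each). Pdk4 shows the widest spread, from 58.2 to 478 TPM, and the groups overlap for every gene except Pdhb.

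Among the 10 genes, the carrier had the highest mRNA levels and Pdk3 the lowest. Over the 6 libraries Mpc1 averaged 417 ± 68.2 TPM and Mpc2 308 ± 37.4 TPM (SD), and Mpc1 was above Mpc2 in 5 of 6 libraries. Pdk4, at 221 ± 139 TPM, came next, but its spread covered the levels of Pdk2 (161 ± 44.1 TPM), Pdha1 (148 ± 20.0 TPM) and Pdhb (140.1 ± 30.0 TPM), and the order of these 4 genes differed between libraries. Dlat (27.8 ± 6.02 TPM) and Pdp1 (22.7 ± 3.90 TPM) were lower, with Dlat above Pdp1 in 5 of 6 libraries. Pdk1 averaged 5.00 ± 1.25 TPM and Pdk3 0.465 ± 0.209 TPM, and each stood below its upper neighbour in all 6 libraries. Kinase mRNA was therefore abundant relative to the opposing phosphatase: the ratio of the 4 kinases to Pdp1 lay between 7.71 and 31.0.

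Pdk4 encodes the kinase isoform most responsive to nutrition. It was at 58.2, 199 and 166 TPM in radiotherapy 1, 2 and 3, against 197, 225 and 478 TPM in control 1, 2 and 3. Radiotherapy 1 was far below and control 3 far above the other 4 libraries, which lay between 166 and 225 TPM. In TPM the groups overlapped narrowly, since radiotherapy 2 was above control 1. After median-of-ratios scaling they overlapped more, with 248 in radiotherapy 2 against 189 in control 1 and 215 in control 2. The group means were 141 ± 73.5 TPM after radiotherapy and 300.4 ± 155 TPM in control (n = 3 each), a 2.22-fold lower value on the log2(TPM + 1) scale. The log2 fold change was −1.15 (SE 0.49, 95% interval −2.25 to −0.04, limma unadjusted p = 0.0431). The difference rested in large part on radiotherapy 1 and control 3: it was −0.61 without radiotherapy 1 and −0.76 without control 3, and neither value passed an unadjusted p of 0.05 in limma (0.152 and 0.140). With all 6 libraries the unadjusted p of Pdk4 (limma) also depended on the setting. It lay between 0.0130 with the replicate number as a block and 0.0939 after median-of-ratios scaling. The highest level of Pdk4 was 8.22 times the lowest, and 97.1% of all genes tested had a smaller SD of log2 values over the 6 libraries. Its spread within groups, a pooled SD of 0.83 on the log2 scale, exceeded that of 95.9% of genes tested, so the variation was not only between groups.

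Pdk2, the isoform present in most tissues, varied much less than Pdk4. It was at 146, 94.3 and 167 TPM in radiotherapy 1, 2 and 3, against 144, 197 and 219 TPM in control 1, 2 and 3. The groups overlapped, with radiotherapy 2 lowest and control 1 below the other 2 controls. Pdk2 had a log2 fold change of −0.48 (SE 0.28, 95% interval −1.11 to 0.16, limma adjusted p = 0.977), and this value was −0.23 without radiotherapy 2. The SD of its log2 values over the 6 libraries was 0.42, against 0.97 for Pdk4. Still, 74.8% of all genes tested had a smaller SD than Pdk2.

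The sequences just upstream of both main kinase genes are shown because these genes had neighbouring mean levels but a different spread over the same libraries. They are the 250 bases before the start site, 5′ to 3′, from RefSeq on GRCm38.p6, a build other than the mm9 named in the submitters' processing notes. Capitals mark matches to the motifs described next.
Pdk4, chr6:5496279-5496528, minus strand: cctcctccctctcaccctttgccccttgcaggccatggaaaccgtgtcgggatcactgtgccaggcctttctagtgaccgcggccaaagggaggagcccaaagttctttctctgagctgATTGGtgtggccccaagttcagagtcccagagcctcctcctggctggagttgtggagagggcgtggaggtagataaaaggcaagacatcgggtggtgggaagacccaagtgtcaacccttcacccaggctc
Pdk2, chr11:95041372-95041621, minus strand: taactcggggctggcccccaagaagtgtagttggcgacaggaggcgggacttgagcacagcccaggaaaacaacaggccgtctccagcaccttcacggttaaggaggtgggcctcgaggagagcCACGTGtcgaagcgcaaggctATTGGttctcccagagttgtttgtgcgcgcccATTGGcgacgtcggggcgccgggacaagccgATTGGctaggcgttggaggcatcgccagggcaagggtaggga

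Both strands were searched for 7 short motifs. The promoter elements were CCAAT, known as the CCAAT box, then TATAAA, which is a TATA box, and GGGCGG, which is a GC box. The E-box searched was CACGTG. For nuclear receptors such as PPARs the half-site AGGTCA was used, for FoxO factors the motif GTAAACA, and for the glucocorticoid receptor the half-site AGAACA. No match overlapped another in either sequence. The Pdk4 window held 1 CCAAT box, on the opposite strand, so that it reads ATTGG in the printed sequence, beginning 131 bases before the start site. The Pdk2 window held 3 CCAAT boxes, all on the opposite strand, beginning 105, 73 and 42 bases before the start, and 1 E-box. Of 32851 upstream windows of the same length in the RefSeq table, 33.8% held a CCAAT box, 6.02% an E-box, 12.4% a TATA box, 32.7% a GC box, 14% the nuclear receptor half-site, 3.17% the FoxO motif and 16.1% the glucocorticoid half-site. Neither window held any of the last 5 in these exact letters. The Pdk4 window had 6 CG dinucleotides, which is the median of all windows, and the Pdk2 window had 19. RefSeq lists another start of Pdk2, whose window held none of the motifs.

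Pdk1, the isoform known as a target of the hypoxia factor HIF-1, was at 5.43, 3.67 and 3.97 TPM in radiotherapy 1, 2 and 3, against 4.63, 7.15 and 5.15 TPM in control 1, 2 and 3. The groups overlapped and the log2 fold change was −0.31 (SE 0.25, 95% interval −0.88 to 0.26). Pdk3, an isoform of restricted expression, was at 0.30, 0.38 and 0.50 TPM in radiotherapy libraries and at 0.83, 0.53 and 0.25 TPM in controls. It did not reach the filter. In a fit that kept all genes above 0 its log2 fold change was −0.13 (SE 0.16), and the control values alone spanned the radiotherapy values.

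Summed over the 4 isoforms, kinase mRNA was lower in each radiotherapy library than in any control library. The sum was 210, 297 and 337 TPM in radiotherapy 1, 2 and 3, against 346, 430 and 703 TPM in control 1, 2 and 3, with means of 282 ± 64.9 TPM after radiotherapy and 493 ± 187 TPM in control (n = 3 each). The gap between radiotherapy 3 and control 1 was small, the log2 ratio of means of −0.81 was −0.46 without control 3, and after median-of-ratios scaling the groups overlapped, with 371 in radiotherapy 2 and 331 in control 1. Sums and ratios over these genes were not tested, since the genes were chosen with earlier results of the data known. The kinase isoform that predominated differed between libraries. Pdk4 made up 27.7, 66.9 and 49.3% of kinase TPM in radiotherapy 1, 2 and 3, against 56.9, 52.4 and 68.0% in control 1, 2 and 3, and Pdk2 nearly all of the rest. Pdk1 was at most 2.58% of the sum, in radiotherapy 1, and Pdk3 at most 0.240%, in control 1.

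**Figure D2:**
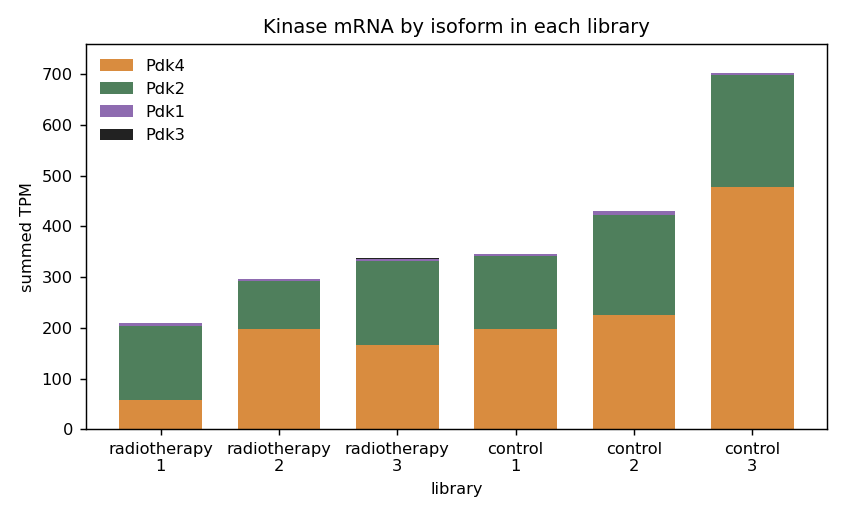
Summed TPM of the 4 kinase isoforms in each library, stacked by isoform, radiotherapy left of control. The total is lowest in radiotherapy 1, at 210 TPM, and highest in control 3, at 703 TPM, and the Pdk4 segment accounts for most of the difference between these 2 libraries.

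Pdp1, the calcium-stimulated phosphatase of muscle that reactivates the complex, was at 27.3, 17.1 and 20.0 TPM in radiotherapy 1, 2 and 3, against 22.3, 26.7 and 22.7 TPM in control 1, 2 and 3. Radiotherapy 1 had the highest value of all and radiotherapy 2 the lowest, so the controls lay inside the radiotherapy range. Its log2 fold change was −0.17 (SE 0.25, 95% interval −0.74 to 0.40). The ratio of kinase sum to Pdp1 was 7.71, 17.4 and 16.9 in radiotherapy libraries, against 15.5, 16.1 and 31.0 in controls. Radiotherapy 1 therefore had the least kinase mRNA for its phosphatase mRNA and control 3 the most, while the other 4 libraries differed little. Of the other phosphatase genes, Pdp2, a second catalytic subunit, stayed below the filter and Pdpr, the regulatory subunit of the phosphatase, had 1.34, 0.92 and 2.26 TPM in radiotherapy 1, 2 and 3 and 1.58, 3.59 and 4.68 TPM in control 1, 2 and 3 (fold change −0.73 on the log2 scale, SE 0.33, adjusted p = 0.977 by limma).

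The catalytic subunits had smaller fold changes than Pdk4. Pdha1, the alpha subunit that carries the regulatory phosphorylation sites, was at 155, 113 and 150.1 TPM in radiotherapy 1, 2 and 3, against 138, 162 and 169 TPM in control 1, 2 and 3. The groups overlapped and its log2 fold change was −0.17 (SE 0.23, 95% interval −0.69 to 0.34). Pdhb, the beta subunit of the same enzyme, was at 144, 90.2 and 123 TPM in radiotherapy 1, 2 and 3, against 147, 174 and 163 TPM in control 1, 2 and 3. All 3 radiotherapy values of Pdhb lay below all 3 control values, and Pdhb was the only 1 of the 9 genes tested with separate groups, where percent called for groups not overlapping was 7.54 for lower and 1.7 for higher values. Radiotherapy 1 and control 1 were close to each other, and after median-of-ratios scaling the groups of Pdhb overlapped. Its log2 fold change was −0.46 (SE 0.24, 95% interval −1.002 to 0.09, limma adjusted p = 0.977), and −0.27 without radiotherapy 2. Group means were 119 ± 26.9 TPM after radiotherapy and 161 ± 13.7 TPM in control.

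The alpha and beta subunits assemble in equal numbers, and the ratio of their mRNAs does not depend on scaling. The ratio of Pdha1 to Pdhb was 1.08, 1.26 and 1.22 in radiotherapy 1, 2 and 3, against 0.94, 0.94 and 1.03 in control 1, 2 and 3. Every radiotherapy library was above every control library, with means of 1.18 ± 0.0948 after radiotherapy and 0.970 ± 0.0558 in control (n = 3 each). Of the 14 sums, shares and ratios computed, this ratio was the only 1 with higher, and the kinase sum the only 1 with lower, values in all radiotherapy libraries. Among single genes tested, groups did not overlap for 7.54% with lower and 1.7% with higher values. Many of the 14 quantities share genes. The ratio of Pdha1 to Pdhb was neither tested nor recomputed with 1 library left out. The upstream sequences of this pair, from the same source and with the same motifs in capitals, are given for comparison.
Pdha1, chrX:160138431-160138680, minus strand: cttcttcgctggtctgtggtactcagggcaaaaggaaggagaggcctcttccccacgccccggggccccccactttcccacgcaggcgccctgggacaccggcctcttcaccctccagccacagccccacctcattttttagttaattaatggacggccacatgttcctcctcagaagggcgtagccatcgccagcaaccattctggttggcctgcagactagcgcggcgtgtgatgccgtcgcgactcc
Pdhb, chr14:8172993-8173242, minus strand: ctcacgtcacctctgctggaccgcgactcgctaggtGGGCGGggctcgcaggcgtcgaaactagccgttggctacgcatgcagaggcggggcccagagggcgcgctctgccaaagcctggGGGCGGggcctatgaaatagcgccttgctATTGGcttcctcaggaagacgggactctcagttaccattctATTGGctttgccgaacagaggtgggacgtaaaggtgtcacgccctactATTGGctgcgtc

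The Pdhb window held 3 CCAAT boxes on the opposite strand, beginning 101, 60 and 12 bases before the start, and 2 GC boxes, while the Pdha1 window held none of the motifs in these letters. The windows had 20 CG dinucleotides for Pdhb and 15 for Pdha1. Promoter windows were found for 9 of the 10 genes.

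Dlat, the acetyltransferase core of the complex, was at 30.4, 16.3 and 27.0 TPM in radiotherapy 1, 2 and 3, against 30.1, 29.7 and 33.5 TPM in control 1, 2 and 3. In TPM radiotherapy 2 was well below the other 5 libraries, and without it the log2 fold change of −0.37 (SE 0.28, 95% interval −0.997 to 0.25) was −0.11. After median-of-ratios scaling Dlat was at 20.3 in radiotherapy 2 and 22.3 in radiotherapy 3, and at 28.3 to 33.1 in the remaining libraries. The ratio of Dlat to Pdhb averaged 0.204 ± 0.0206 after radiotherapy and 0.194 ± 0.0199 in control, a difference smaller than the spread within either group. The remaining subunits showed similar values. Pdhx, which anchors the shared dehydrogenase subunit to the core, was at 19.2, 12.1 and 20.2 TPM in radiotherapy 1, 2 and 3, against 20.4, 20.5 and 25.9 TPM in control 1, 2 and 3 (log2 fold change −0.38, SE 0.27). Dld, that shared subunit, differed by −0.35 on the log2 scale (SE 0.27), and Pdha2, a testis form of the alpha subunit, was listed at 0 in all 6 libraries. Of these 5 other subunit and phosphatase genes 3 were tested, 0 were called in either direction, and their median was −0.38. Pdhx was the only 1 of these 3 with all radiotherapy values below all control values, beside 7.54% of all genes tested. The gap was narrow, with 20.16 TPM in radiotherapy 3 and 20.38 TPM in control 1. It rests on TPM and was not examined after median-of-ratios scaling.

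**Figure D3:**
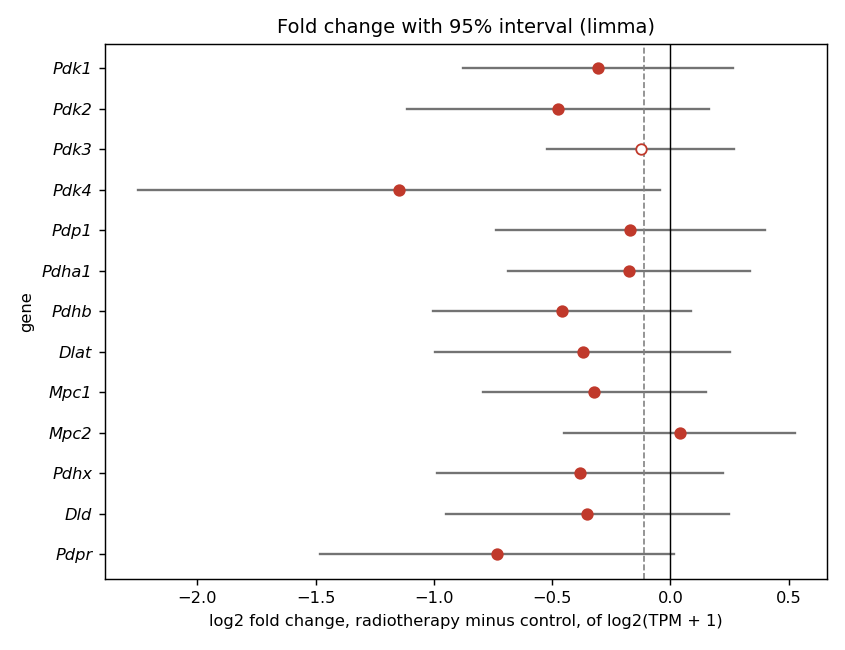
Log2 fold change, radiotherapy minus control, with its 95% interval from limma, for the 10 genes and for Pdhx, Dld and Pdpr. The open circle is Pdk3, which was below the expression filter, and the dashed line is the median of all genes tested, −0.11; only the interval of Pdk4 lies wholly below 0.

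The carrier subunits had unlike values. Mpc1 was at 412, 318 and 381 TPM in radiotherapy 1, 2 and 3, against 401, 484 and 503 TPM in control 1, 2 and 3, and only radiotherapy 1 reached the control range. Its log2 fold change was −0.32 (SE 0.21, 95% interval −0.79 to 0.15). Mpc2, whose product pairs with that of Mpc1, was at 347, 326 and 264 TPM in radiotherapy 1, 2 and 3, against 289, 274 and 349 TPM in control 1, 2 and 3. Both groups covered nearly the same range of TPM, with a log2 fold change of 0.04 (SE 0.22, 95% interval −0.45 to 0.52). The ratio of Mpc1 to Mpc2 was 1.19, 0.976 and 1.44 in radiotherapy 1, 2 and 3, against 1.39, 1.77 and 1.44 in control 1, 2 and 3. Radiotherapy 2 was the only library with more Mpc2 than Mpc1, and radiotherapy 3 matched control 3.

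Radiotherapy 2 had the lowest TPM of the 6 libraries for 7 of the 10 genes, and control 3 the highest for 6. Radiotherapy 2 also had the highest share of mitochondrial transcripts, 22.5%. After median-of-ratios scaling it was lowest for 2 of the 10 genes, and radiotherapy 3 for 6. For most of these genes the lowest place of radiotherapy 2 therefore depended on the scaling, but Pdk2 and Dlat were lowest there under either scaling. Pdk4 was lowest in radiotherapy 1 and highest in control 3 under either scaling. Without radiotherapy 2 the median of the 9 genes was −0.21, against −0.01 for all genes tested.

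Over the 6 libraries, Pdk4 and Mpc2 lay farthest from the other genes in profile. The likeness of 2 genes was measured as the root-mean-square distance between their gene-centred log2(TPM + 1) values. These values were not scaled to equal spread, so the distance also depends on how much each gene varied. The nearest pair was Pdha1 and Mpc1, at a distance of 0.086, followed by Dlat and Pdhx at 0.098; the median distance to all genes tested was 0.27 from Pdha1 and 0.33 from Dlat. Pdk2 was nearest to Dld, at 0.12. Pdk4, whose values varied widely, was far from all of them, with Pdk2 the nearest at 0.81. Its median distance to all genes tested was 0.89, and 18.4% of them were nearer to it than Pdk2. Mpc2 was nearest to Pdha1, at 0.25, and 13.4% of genes tested were nearer to Mpc2 than Pdha1. These distances rest on 6 libraries that share their normalization and are given as descriptions.

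By the same measure, the 4 named genes nearest to Pdk4 among those tested were Gadd45g, Rpl35a-ps4, Trim63 and Tnfsf13os, at distances from 0.44 to 0.46. Gadd45g, a stress-induced gene, was at 34.4, 69.4 and 39.0 TPM in radiotherapy 1, 2 and 3, against 48.4, 66.0 and 165 TPM in control 1, 2 and 3. Trim63, a ubiquitin ligase of muscle atrophy, was at 297, 769 and 1164 TPM in radiotherapy 1, 2 and 3, against 521, 946 and 1503 TPM in control 1, 2 and 3. Both were lowest in radiotherapy 1 and highest in control 3, as Pdk4 was, which follows in part from their choice by nearness to Pdk4. In radiotherapy 3, Trim63 was above control 1 and control 2, whereas Pdk4, at 166 TPM, was below all controls. Rpl35a-ps4 is named as a pseudogene of a ribosomal protein gene, whose reads may belong to the parent gene, and Tnfsf13os lay at 0.72 to 4.32 TPM. None of the 4 passed limma (adjusted p = 0.977 each).

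**Figure D4:**
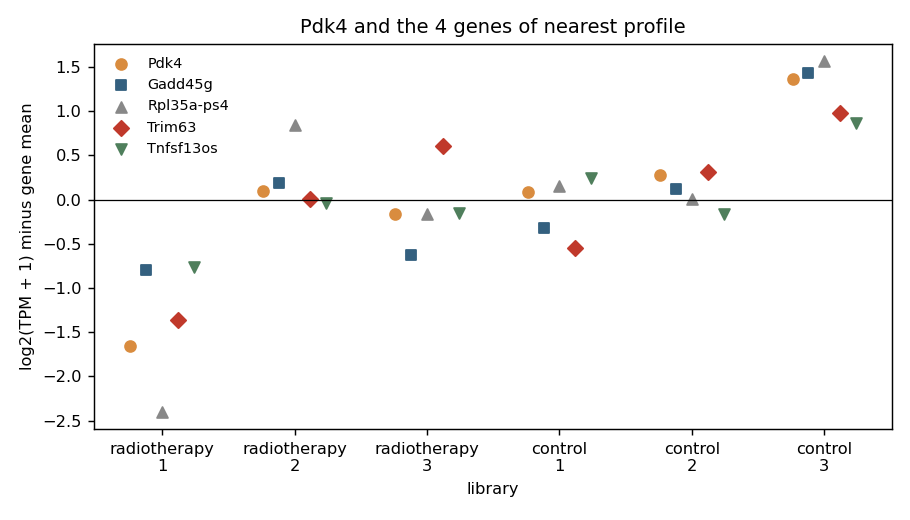
Log2(TPM + 1) minus the mean of each gene over the 6 libraries, for Pdk4 and the 4 genes of nearest profile, radiotherapy left of control. All 5 genes are lowest in radiotherapy 1 and highest in control 3, in part because the 4 were chosen for nearness to Pdk4.

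The libraries at both ends of the Pdk4 range also stood at the ends of the range of summed adipocyte markers, in the opposite order. The 8 adipocyte markers summed to 2363, 597 and 929 TPM in radiotherapy 1, 2 and 3, against 819, 898 and 278 TPM in control 1, 2 and 3, and 7 of 7 tested were positive with 0 called. Cfd alone was at 1412 TPM in radiotherapy 1, and Fabp4 alone at 236 TPM in control 3. Lipe was lowest in radiotherapy 2 and Lep highest in control 2, while all others were highest in radiotherapy 1 and lowest in control 3. Adipoq, which defines the type, was at 88.7 TPM in radiotherapy 1 and 1.98 TPM in control 3; Lep, at most at 0.16 TPM, was the only marker of any list at 0 in a library. Slow fibre markers, 7 genes, ranged from 1498 to 1979 TPM in radiotherapy and from 817 to 2331 TPM in control libraries, with the lowest sum in control 3. Fast fibre markers, 9 genes, ranged from 71601 to 114892 TPM in radiotherapy and from 121365 to 140152 TPM in control libraries. Leukocyte markers, 9 genes, were highest in control 1, at 1826 TPM, against 165 to 785 TPM in radiotherapy and 287 to 302 TPM in the other 2 controls. Endothelial markers, 7 genes, summed to 102 to 138 TPM in radiotherapy and 93.8 to 127 TPM in control libraries, and 5 fibroblast markers to 85.2 to 132 TPM in radiotherapy and 81.1 to 175 TPM in control libraries. Erythroid markers, 5 genes, summed to 930 to 1618 TPM in radiotherapy and 3352 to 7203 TPM in control libraries. The part of these in the Pdk4 values was not tested.

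The transcription factors known to act on Pdk genes were described as a list of 12, of which 10 were tested and 0 were called. Their median was −0.25, with 8 negative, beside −0.11 and 67.9% negative for all genes tested. The 3 of smallest p were the PPAR partner Rxra (log2 fold change −0.84, SE 0.42), the FoxO factor Foxo4 (−0.52, SE 0.30) and the glucocorticoid receptor Nr3c1 (−0.40, SE 0.27). Foxo1, a known activator of Pdk4, had −0.30, and Ppard, the main PPAR of muscle, −0.04. Targets of PPARs in fat oxidation numbered 16, of which 15 were tested, 0 were called, 8 were negative and the median was −0.07. Ucp3, an uncoupling protein of muscle mitochondria that is induced with Pdk4 in fasting, was at 10.3, 12.7 and 27.6 TPM in radiotherapy 1, 2 and 3, against 53.0, 76.7 and 17.0 TPM in control 1, 2 and 3. Ucp3 was lowest in radiotherapy 1, as Pdk4 was, but control 3, the library with most Pdk4, had less Ucp3 than radiotherapy 3 (log2 fold change −1.37, SE 0.54, limma adjusted p = 0.977). The other 2 of smallest p were Cpt1a, which imports fatty acids into mitochondria (−0.53, SE 0.27), and Angptl4, an inhibitor of lipoprotein lipase (0.50, SE 0.29).

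Genes that supply the cofactors of the complex were described next. Of 11 genes for lipoate, iron-sulphur clusters and thiamine pyrophosphate, 10 were tested, 0 were called, 7 were negative and the median was −0.37. The iron-sulphur assembly genes Isca1 and Iba57 had −0.71 (SE 0.33) and −0.47 (SE 0.23). In the related dehydrogenases of 2-oxoglutarate and branched-chain oxoacids, with their kinase and phosphatase, 7 of 8 genes were tested, 0 were called, 4 were negative and the median was −0.18. Their 3 of smallest p were Dbt (0.36, SE 0.25), Ogdh (−0.37, SE 0.28) and Bckdk (−0.29, SE 0.25), the last a relative of the pyruvate dehydrogenase kinases.

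Enzymes and carriers of the other fates of pyruvate and acetyl-CoA were described last. Of 14 genes, 13 were tested, 0 were called, 10 were negative with a median of −0.35, and 7 had all radiotherapy values below all control values, beside a percent called of 7.54 for all genes tested. The count of 7 rests on TPM and was not repeated after median-of-ratios scaling, under which the groups of Pdhb overlapped. Gpt2, which interconverts pyruvate and alanine in mitochondria, was at 53.1, 34.8 and 50.2 TPM in radiotherapy 1, 2 and 3, against 64.6, 124 and 82.4 TPM in control 1, 2 and 3 (fold change −0.93 on the log2 scale, SE 0.30, adjusted p = 0.977 by limma). The lactate dehydrogenase gene Ldha had −1.06 (SE 0.39), with its lowest value, 516 TPM, in radiotherapy 2. Pkm, whose product makes pyruvate, had −0.74 (SE 0.31), and the groups of Pkm were separated by less than 1 TPM.

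How far these values depend on the settings was examined for each gene. Pdk4 kept a negative fold change under all 15 alternatives, from −1.48 to −0.61, and was called under none of them. Pdk1, Pdk2, Pdha1, Pdhb, Dlat, Pdp1 and Mpc1 were also negative under all 15, with Pdp1 and Pdha1 reaching −0.00041 and −0.03, while Mpc2 turned negative without radiotherapy 1 and without control 2, and Pdk3 positive without control 1.

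**Figure D5:**
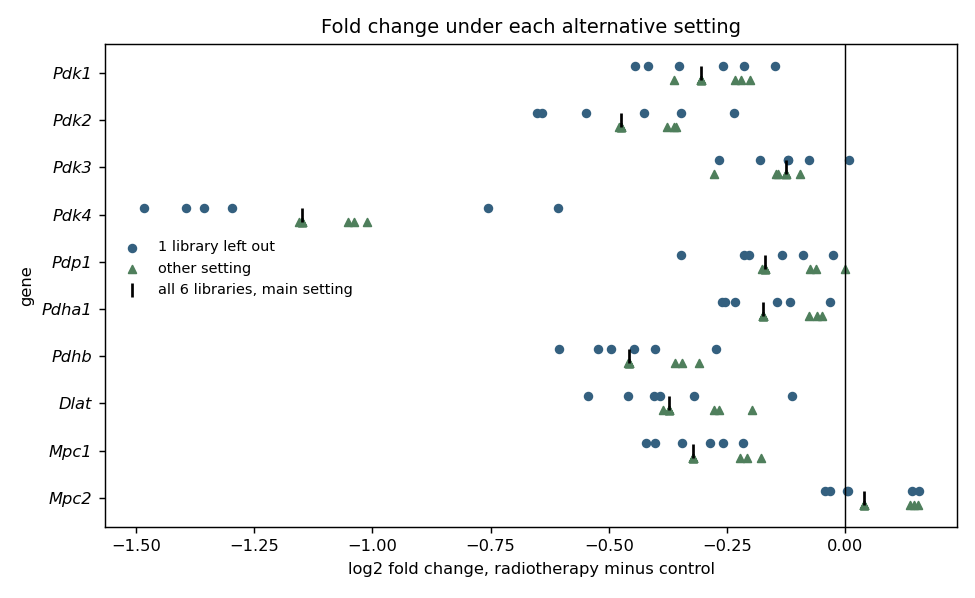
Log2 fold change, radiotherapy minus control, of each gene under every alternative setting. Circles leave out 1 library each, triangles change the filter, scaling, pseudocount, variance model or replicate block, and the bar is the value with all 6 libraries; Pdk4 spans −1.48 to −0.61 and the other genes lie between −0.65 and 0.15.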

How the data were processed

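Gastrocnemius RNA of 3 radiotherapy and 3 control samples was analysed from 1 table in which the authors deposited TPM values for 57010 genes; each column summed to 1000000 within 1. HISAT2, StringTie and RSEM and the build mm9 are named in the submitters' processing notes; no source used here gives their versions, roles, annotation or strandedness. Depth is therefore unknown, and antisense or overlapping genes cannot be separated. Annotated genes overlapping Pdk2, Pdha1, Mpc1 and Mpc2 were at most at 1.26 TPM in any library.

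Genes reaching 1 TPM in 3 or more samples were tested on log2(TPM + 1) with limma 3.58.1 in R 4.3.3 (mean-variance trend, two-sided, group as the only term, Benjamini-Hochberg over 11375 genes). Fold changes understate changes of low genes. The genes and lists were chosen with earlier results of these data known; lists are described by counts and medians without a test. In each pathway list the 3 genes of smallest p were named, except 1 that is not reported here, plus the 4 profiles nearest to the most variable member; Foxo1, Ppard and Adipoq were named after their values were seen. The test was checked on simulated data. At most 3.35% of values were equal between any 2 libraries. Alternatives changed the pseudocount, filter, scaling, variance model, replicate block and samples. Replicate numbers are shared by the groups with no stated pairing. Figures were drawn with matplotlib 3.10.9.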

Additional observations from a re-analysis of the deposited data

How the results depend on the processing

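Values were recomputed with 0.1 as the pseudocount, with the filter raised to 5 TPM or dropped, with quantile or median-of-ratios scaling, without mitochondrial and the 50 top genes, with limma robust or untrended, with the replicate block, and with each library left out. The count of genes called stayed at 0 with all 6 libraries and at an adjusted p of 0.1; leaving out 1 library gave 0 to 1, the called genes being Gm24497 without radiotherapy 1 and Gm55635 without control 1 (limma adjusted p = 0.0148 and 0.000948), both predicted genes named after their values were seen. No member was called under any of them. Leaving out 1 library moved Mpc2 between −0.042 and 0.15 and Pdk3, fitted without a filter, between −0.27 and 0.0083, and the median of all genes tested between −0.25 without radiotherapy 3 and −0.0050 without radiotherapy 2. It moved the log2 ratio of the group means of the kinase sum, −0.81 with all 6 libraries, between −1.01 and −0.46. The unadjusted p of Pdk4 ranged from 0.0130 to 0.152 over its alternatives, and its limma adjusted p from 0.507 to 1.00. With the replicate block 0 genes were called (limma), with 403 at an unadjusted p under 0.05, and the fold change of Pdk4 stayed at −1.15 (limma adjusted p = 0.984). The deviations of same-numbered libraries had correlations of −0.06, 0.02 and −0.11 across genes. No shared deviation by number was seen, but such correlations cannot settle whether the samples were paired. For Pdk4 the SE was 0.34 with the replicate block and 0.49 without it. With TPM alone, no counting error or detection limit can be given, and Pdk3, Pdp2 and Pdha2 are limited by their low values.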

Other observations

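Targets of HIF-1, the factor that acts on Pdk1 in hypoxia, were described from a list of 11 genes, of which 10 were tested, 0 were called by limma (0 at an unadjusted p under 0.05) and 7 were positive, with a median log2 fold change of 0.16, beside −0.11 for all genes tested. The 3 of smallest p were all negative: Pgk1, a glycolytic enzyme (−0.71, SE 0.35), P4ha1, a collagen prolyl hydroxylase (−0.51, SE 0.30), and Ankrd37 (−0.47, SE 0.29). Pdk1 itself had −0.31.

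Targets of FoxO factors and of the glucocorticoid receptor, both known to act on Pdk4, formed a list of 13 tested genes with a median of −0.29, 9 negative and 0 called by limma (0 at an unadjusted p under 0.05). The 3 of smallest p were Tsc22d3, a glucocorticoid-induced leucine zipper gene (−0.55, SE 0.30), the metallothionein Mt2 (0.88, SE 0.60) and the insulin receptor substrate Irs2 (−0.59, SE 0.42). Tsc22d3 was at 139, 222 and 310 TPM in radiotherapy 1, 2 and 3, against 275, 334 and 330 TPM in control 1, 2 and 3, and was lowest in radiotherapy 1, as Pdk4 was. Mt2 was highest in radiotherapy 3, at 5704 TPM, and lowest in control 3, at 747 TPM, and stood at 914 TPM in radiotherapy 1.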
